A study of Mus musculus with 12 samples.

Results

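The corticosteroid receptors and a set of their direct target genes were followed in the medial prefrontal cortex of stressed and unstressed mice. The set held 10 genes, each found by its exact name among the 55678 gene names of the expression table: the receptor genes Nr3c1 and Nr3c2, the receptor co-chaperone gene Fkbp5, the target genes Tsc22d3, Sgk1, Zbtb16, Errfi1, Pdk4 and Ddit4, and the enzyme gene Hsd11b1. All 10 reached the level needed for testing, at least 1 TPM in at least 3 libraries. All are protein-coding, and gene coordinates given here are those of GENCODE M21 on GRCm38. TPM is an abundance scaled to the same total in every library and corrected for transcript length, so that levels of different genes can be set beside each other.

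The study crossed chronic restraint stress (CRS) with strain and asked how strains differ in their response. The strains were BALB/cCrSlc, called BALB/c here, and C57BL/6JmsSlc, called B6. Mice were 9 to 10 weeks old, and RNA came from a 1.5 mm punch of the prefrontal cortex taken once behavioural tests were over. Each of the 4 groups held 3 libraries, 1 per mouse, named here by the animal number: B6 controls 2, 3 and 9, B6 CRS mice 12, 13 and 14, BALB/c controls 5, 9 and 10, and BALB/c CRS mice 12, 13 and 15. CRS mice were held in restrainers for 6 h a day over 21 days, and control mice of the same strain were handled with no restraint. Both strains are ordinary inbred stocks and no group carried a transgene or received a drug, as far as the labels say. The labels do not give sex, the hour of collection or the interval from the last restraint to death, all of which bear on corticosterone. In each of the 12 libraries Xist was at 0.043 TPM or less and Ddx3y, a Y chromosome gene, between 14.9 and 22 TPM. That is the pattern of male mice, a point that matters for Tsc22d3, which lies on the X chromosome.

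Corticosterone, the main glucocorticoid of mice, acts through a pair of related nuclear receptors. The mineralocorticoid receptor (Nr3c2) binds it with high affinity and is largely occupied at rest, whereas the glucocorticoid receptor (Nr3c1) is engaged as the hormone rises during stress or at the daily peak. Bound receptors enter the nucleus and bind glucocorticoid response elements, pairs of inverted hexamers, near genes such as Fkbp5, Tsc22d3 and Sgk1. FKBP5 protein in turn lowers the hormone affinity of the glucocorticoid receptor, a short feedback loop, and the enzyme made from Hsd11b1 regenerates active hormone inside cells.

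The libraries also differed between strains in the levels of cell type marker transcripts. The score of a marker list was its average log2(TPM + 1) per library. The score of 10 oligodendrocyte and myelin markers was between 6.75 and 8.63 in B6 and between 4.34 and 6.97 in BALB/c (summed level 2598 to 9961 TPM against 491 to 3168 TPM), and all 10 genes were called lower in BALB/c. The score of 9 striatal neuron markers, which mark tissue next to the cortex, was between 3.83 and 7.69 in B6 and between 3.49 and 4.88 in BALB/c, and all 9 were called lower in BALB/c. Astrocyte markers scored 6.67 to 6.99 in B6 and 6.23 to 6.61 in BALB/c, with 3 of 8 called lower in BALB/c, and 3 of 8 excitatory neuron markers were called higher there. The cortical markers were present in every library, with all 8 excitatory neuron genes above 0. In bulk tissue, fewer cells of a type and less RNA per cell cannot be told apart. BALB/c CRS mouse 12 stood apart in carrying 3.97% of its TPM in an 18S ribosomal RNA gene.

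Between strains, 3 target genes and the enzyme gene were called lower in BALB/c. Averaged over control and CRS, Tsc22d3, Ddit4, Hsd11b1 and Sgk1 were lower in BALB/c at an adjusted p under 0.05 (limma with Benjamini-Hochberg adjustment over the 16423 genes tested), which defines a call throughout. This was 4 of 10, all in 1 direction, where 18.4% of all tested genes were called and 14.3% were called lower. The log2 difference was below 0 for 9 of 10 members and for 63.8% of all genes, and its median was -0.46 for the members and -0.08 for all genes. With median-of-ratios factors applied to the TPM columns, 3 members were called lower (Tsc22d3, Ddit4 and Sgk1) and 1 higher (Zbtb16). Over all genes the same scaling gave 1724 lower and 1474 higher, against 2356 lower and 665 higher without it. All log2 differences were taken after adding 1 TPM, so changes of low genes are understated. Among controls alone, Tsc22d3 and Ddit4 were called lower, 2 of 10 against 4.73% of all genes (3.37% lower). Under CRS alone only Tsc22d3 was called lower, 1 of 10 against 7.7% of all genes (5.33% lower). The median log2 difference of the members was -0.50 in controls and -0.43 under CRS.

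**Figure D1:**
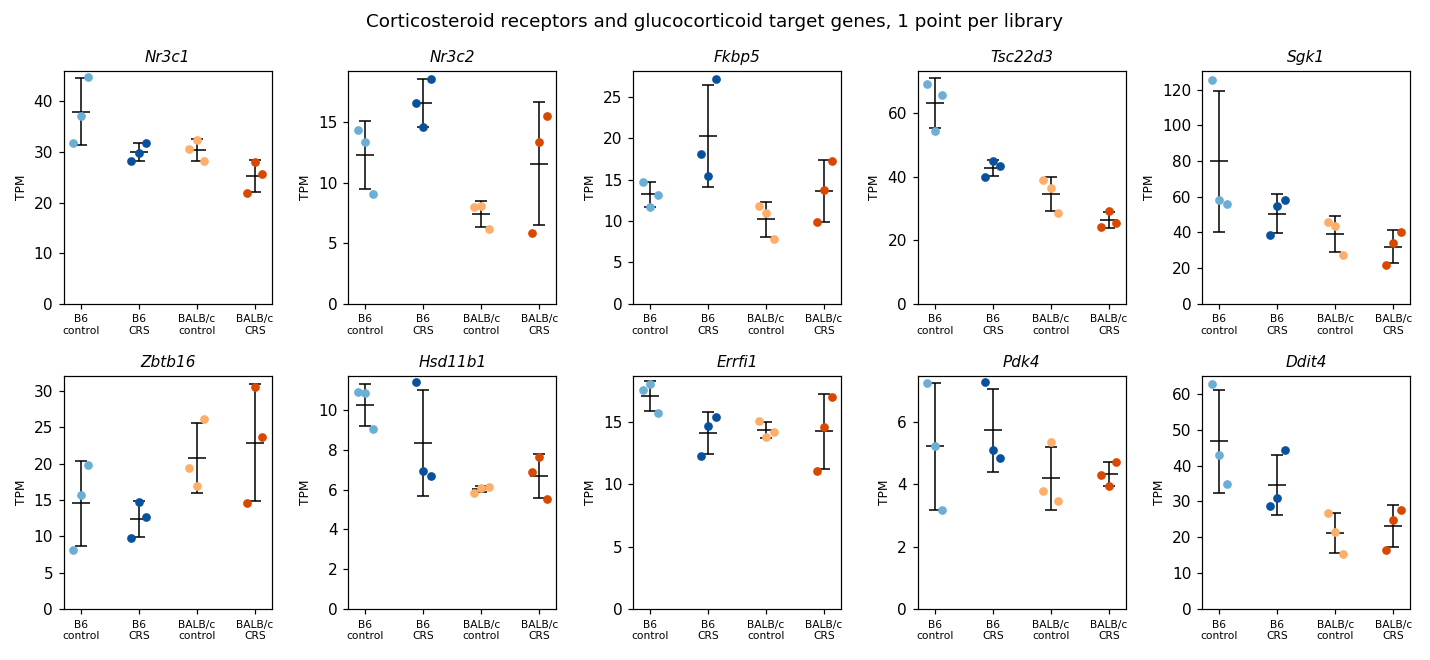
TPM of the 10 genes in the 12 libraries, with 1 panel per gene, 1 point per library and the mean ± SD of each group of 3 as a bar. Tsc22d3 steps down from B6 controls (54.3 to 69.2 TPM) to BALB/c CRS mice (24.1 to 29.1 TPM), whereas Zbtb16 is the gene whose BALB/c means lie above its B6 means.

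With restraint, 0 of 10 members were called in either strain, averaged over strains or in the difference of the CRS effect between strains (limma). The shares of all genes called were 0% in B6, 0.00609% in BALB/c, 0.00609% for the average and 0% for the difference, so at most 1 of all tested genes was called. At an unadjusted p under 0.05 the average over strains held 4 of 10 members (Tsc22d3, Nr3c1, Fkbp5 and Nr3c2) and 5.17% of all genes. The same count was 3 of 10 in B6 (4.82% of all genes), 1 of 10 in BALB/c (3.03%) and 0 of 10 for the difference between strains (2.7%). Those 4 genes held ranks 6, 153, 240 and 712 by p among 16423 for the average. Tsc22d3 and Nr3c1 were lower after CRS and Fkbp5 and Nr3c2 were higher, and each of the 4 had the same sign in both strains. Picking genes by the average over strains favours equal signs, so this is no separate evidence. The log2 difference of the CRS effect between strains lay between -0.18 (Fkbp5, SE 0.33) and 0.52 (Ddit4, SE 0.37).

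**Figure D2:**
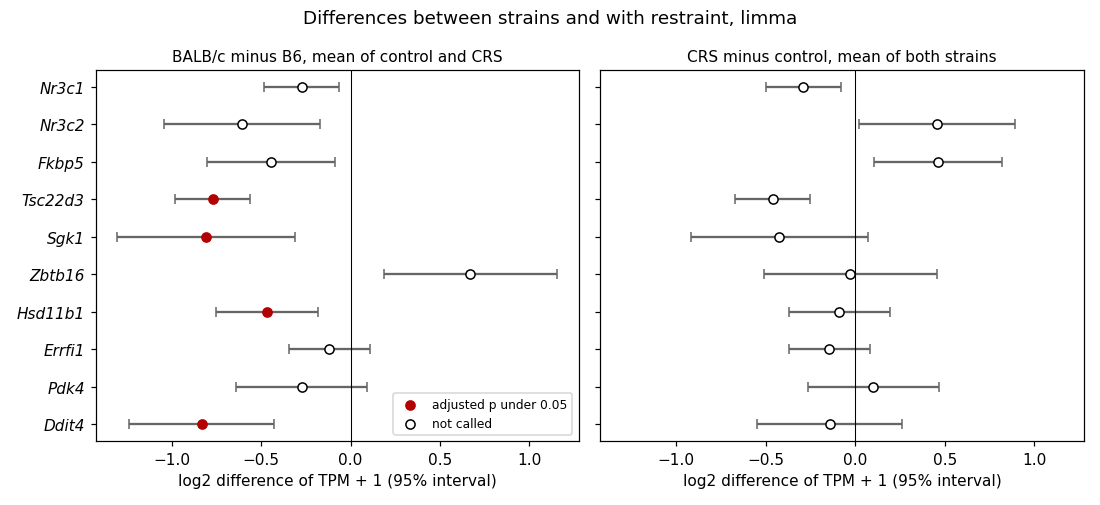
Log2 differences of TPM + 1 with 95% intervals for the 10 genes, BALB/c minus B6 on the left and CRS minus control on the right, on a shared axis. Filled points mark the 4 genes called between strains, and no gene is filled for CRS, where the intervals of Nr3c1, Nr3c2, Fkbp5 and Tsc22d3 leave out 0 before adjustment.

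Nr3c1, the glucocorticoid receptor gene, stood at 31.7, 37.1 and 44.9 TPM in B6 controls 2, 3 and 9, and at 28.2, 29.7 and 31.8 TPM in B6 CRS mice 12, 13 and 14. In BALB/c it was at 30.6, 32.4 and 28.1 TPM in controls 5, 9 and 10, and at 21.9, 28.1 and 25.6 TPM in CRS mice 12, 13 and 15. The BALB/c CRS mice all lay below the BALB/c controls, with hardly a gap (28.07 against 28.12 TPM), while in B6 the highest CRS mouse was level with the lowest control. Non-overlapping groups occurred for 7.39% of all genes in BALB/c. The CRS difference averaged over strains was -0.29 log2 (SE 0.10, unadjusted p = 0.0103, adjusted p = 0.946, limma). Between strains the averaged difference was -0.27 (SE 0.10, adjusted p = 0.0712, limma), and the CRS groups did not overlap between strains. In B6 the direction depended on the sum over rows, since the single row with the highest mean gave 0.19 for CRS minus control in place of -0.32.

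Nr3c2 (chr8:76899442-77245012, plus strand), the mineralocorticoid receptor gene, measured 14.4, 13.3 and 9.10 TPM in the B6 controls 2, 3 and 9, against 16.6, 14.6 and 18.6 TPM in B6 CRS mice 12, 13 and 14. In BALB/c controls 5, 9 and 10 it was at 8.03, 8.05 and 6.21 TPM, and in CRS mice 12, 13 and 15 at 5.83, 13.3 and 15.5 TPM. In B6 the CRS mice all lay above the controls, and in BALB/c 2 of 3 CRS mice lay above every control while mouse 12 lay below them. The averaged CRS difference was 0.45 log2 (SE 0.20, unadjusted p = 0.0418, adjusted p = 0.946, limma). The averaged strain difference was -0.61 (SE 0.20, adjusted p = 0.0536, limma), and control groups did not overlap. An exon of Gm10649 lies on the other strand across Nr3c2 in GENCODE M21, so its value is uncertain if strand was not used in quantification.

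The balance between the receptors was read as the log2 ratio of Nr3c2 to Nr3c1 within a library, each with 1 TPM added, a quantity that library scaling hardly touches. It was -1.09, -1.41 and -2.18 in B6 controls 2, 3 and 9 and -0.74, -0.98 and -0.74 in B6 CRS mice 12, 13 and 14. In BALB/c it was -1.80, -1.89 and -2.01 in controls 5, 9 and 10 and -1.75, -1.02 and -0.69 in CRS mice 12, 13 and 15. Nr3c1 was the more abundant transcript in all 12 libraries, and in each strain the 3 CRS mice had higher ratios than the 3 controls. The ratio rose with CRS by 0.75 log2 averaged over strains (exact permutation within strains, 400 relabellings, two-sided p = 0.005, the smallest they can give, and 0.03 after Benjamini-Hochberg adjustment over 6 contrasts). The difference was 0.74 in B6 and 0.75 in BALB/c, where 3 against 3 libraries cannot go below an exact p of 0.1, the value found in both. The strain difference was -0.34 averaged over treatment (exact permutation p = 0.175). The ratio was chosen with earlier results of these data known, so these p-values do not rest on an independent choice. It also rests on summed rows. The highest single row had an averaged CRS difference of -0.02 (SE 0.18) for Nr3c1 and 0.33 (SE 0.19, limma) for Nr3c2. A ratio of single rows was not computed.

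**Figure D3:**
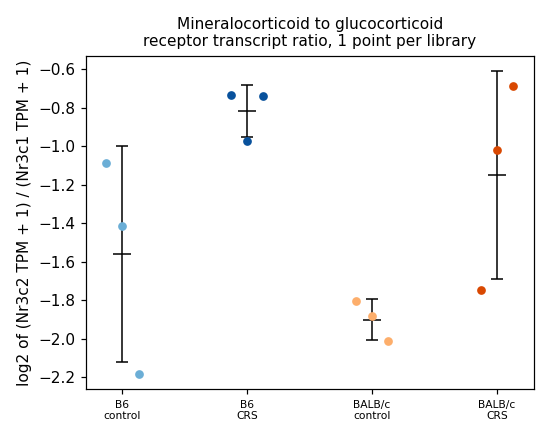
Log2 ratio of Nr3c2 to Nr3c1 (TPM + 1) in each of the 12 libraries, with the mean ± SD of each group of 3. In both strains the CRS points lie above the control points, from -0.98 to -0.74 against -2.18 to -1.09 in B6 and from -1.75 to -0.69 against -2.01 to -1.80 in BALB/c.

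The order of the ratio among B6 controls ran with the striatal score, which was 7.69, 5.21 and 3.83 in mice 2, 3 and 9. The B6 CRS mice had striatal scores of 7.37, 7.04 and 6.18, so that B6 CRS mice as a group also carried more striatal transcript than 2 of their 3 controls. In BALB/c the striatal score gave no such split, at 3.74, 4.88 and 3.49 in controls 5, 9 and 10 and 3.55, 3.67 and 3.77 in CRS mice 12, 13 and 15. Other marker scores did differ there. The score of 6 meninges markers was 1.34 to 2.01 in BALB/c controls and 2.24 to 2.72 in CRS mice. All 6 had an unadjusted p under 0.05 (0 called, limma), where 3.03% of all genes did. Pericyte and mural markers scored 2.79 to 3.08 in BALB/c controls and 3.13 to 3.45 in CRS mice. In B6 both scores overlapped between controls and CRS mice. All 9 striatal markers were higher after CRS averaged over strains (median 0.45 log2, 0 called, limma). That average came from B6, where all 9 were higher (median 1.20), while in BALB/c 8 of 9 were lower (median -0.40). The part of these tissue markers in the ratio was not tested. With the striatal score as a covariate the averaged CRS differences were -0.25 for Nr3c1 and 0.39 for Nr3c2 (limma).

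Fkbp5 (chr17:28399094-28517527, minus strand) encodes the co-chaperone of the feedback loop and is a widely used readout of receptor activity. It measured 14.8, 11.7 and 13.2 TPM in the B6 controls 2, 3 and 9, against 18.2, 15.5 and 27.2 TPM in B6 CRS mice 12, 13 and 14. In BALB/c controls 5, 9 and 10 it was at 11.8, 11.0 and 7.85 TPM, and in CRS mice 12, 13 and 15 at 9.89, 13.7 and 17.3 TPM. The B6 CRS mice lay above all B6 controls, and the BALB/c groups overlapped through mouse 12. In B6, 4 of 10 members had groups that did not overlap with CRS, Fkbp5 and Nr3c2 higher and Tsc22d3 and Errfi1 lower, where 8.33% of all genes did. In BALB/c this held for 1 of 10, Nr3c1. The averaged CRS difference of Fkbp5 was 0.46 log2 (SE 0.16, unadjusted p = 0.0156, adjusted p = 0.946, limma), and the averaged strain difference was -0.44 (SE 0.16, adjusted p = 0.0814, limma).

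The table holds 15 rows for Fkbp5, as many as GENCODE M21 has transcripts of it, but does not name the transcripts. The highest row carried 84.6% of its mean level, with 13.6, 11.6 and 10.3 TPM in B6 controls against 18.1, 15.1 and 20.4 TPM in B6 CRS mice. In BALB/c that row was at 8.57, 7.68 and 7.54 TPM in controls and 8.66, 11.55 and 12.5 TPM in CRS mice. On this row CRS mice lay above controls in both strains without overlap, in BALB/c with hardly a gap (8.57 against 8.66 TPM). The share of all rows that separate in this way was not counted, and single rows were added after the data were seen. The averaged difference of this Fkbp5 row was 0.48 log2 (SE 0.12, unadjusted p = 0.00197, adjusted p = 0.76, limma over single rows). The row was called lower in BALB/c (averaged difference -0.59, SE 0.12, adjusted p = 0.0142, limma), while the sum was not. Single rows rest on how the quantifier splits reads between transcripts, an error not given in the table.

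Tsc22d3 (chrX:140539528-140600659, minus strand) encodes GILZ, a leucine zipper protein induced by glucocorticoids. It measured 69.2, 54.3 and 65.7 TPM in the B6 controls 2, 3 and 9, against 39.9, 44.9 and 43.2 TPM in B6 CRS mice 12, 13 and 14. In BALB/c it was at 38.8, 36.3 and 28.5 TPM in controls 5, 9 and 10 and at 24.1, 29.1 and 25.5 TPM in CRS mice 12, 13 and 15. Every BALB/c library lay below every B6 library, with a narrow gap (38.8 against 39.9 TPM). The share of all genes that separate in this way was not counted. Of the members Tsc22d3 was the one called in controls (-0.85, SE 0.14, adjusted p = 0.00251), under CRS (-0.68, SE 0.14, adjusted p = 0.0106) and on average (-0.77, SE 0.10, adjusted p = 0.000203, limma). Leaving out 1 library at a time kept the averaged difference between -0.82 and -0.71.

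With CRS, Tsc22d3 in B6 lay below the controls in all 3 mice, and in BALB/c the groups overlapped by a single mouse of each. The difference was -0.55 (SE 0.14) in B6 and -0.38 (SE 0.14) in BALB/c, and -0.46 on average (SE 0.10, unadjusted p = 0.000425, adjusted p = 0.939, limma). It was the member of lowest p for CRS, yet it did not pass the adjustment over all genes in any of 20 alternative fits (lowest adjusted p 0.317, limma). So Tsc22d3 and Fkbp5, both textbook targets of the glucocorticoid receptor, stood on opposite sides of 0 with CRS. The test of one against the other was not made.

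The 6 rows of Tsc22d3 did not move alike. The highest row held 41.0, 28.2 and 39.2 TPM in B6 controls, 22.4, 20.7 and 16.7 TPM in B6 CRS mice, 21.0, 16.4 and 13.1 TPM in BALB/c controls and 8.0, 11.5 and 11.7 TPM in BALB/c CRS mice. Its CRS groups lay below the controls without overlap in both strains, and the share of all rows that separate in this way was not counted. The averaged CRS difference of this row, also read after the data were seen, was -0.73 (SE 0.15, unadjusted p = 0.000516, adjusted p = 0.552, limma). Its strain difference was -0.97 (SE 0.15, adjusted p = 0.00329, limma). The second row stayed between 11.9 and 22.7 TPM in all 12 libraries, with a CRS difference of -0.08 (SE 0.14) and a strain difference of -0.15 (SE 0.14, adjusted p = 0.607, limma). Rows 3 and 4 by mean level were also called lower in BALB/c. The difference between the rows was not itself tested. Over all members 26 rows with a mean of at least 1 TPM were tested and 6 were called lower in BALB/c on average, in Tsc22d3, Fkbp5, Sgk1 and Ddit4, where 6.05% of the 46000 rows tested were called. For CRS 0 of 26 rows were called, against 0.00435% of all rows.

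**Figure D4:**
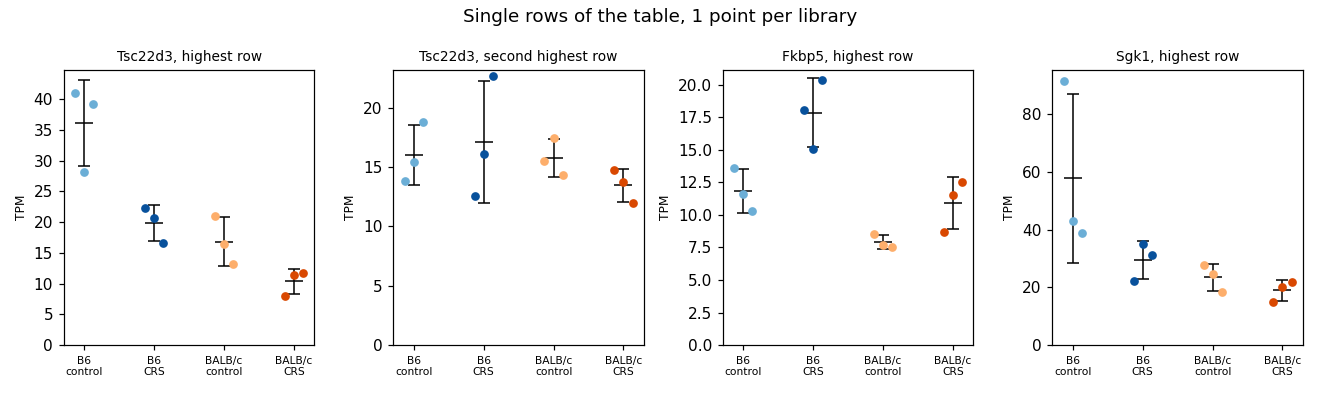
TPM of single table rows in the 12 libraries, with the mean ± SD of each group of 3. The highest rows of Tsc22d3, Fkbp5 and Sgk1 are lower in BALB/c, the second row of Tsc22d3 stays between 11.9 and 22.7 TPM, and the CRS points of the highest rows lie below controls for Tsc22d3 and above them for Fkbp5.

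Sgk1 (chr10:21882184-21999903, plus strand) encodes the serum- and glucocorticoid-regulated kinase, which acts on ion channels and transporters and is abundant in oligodendrocytes. A complete glucocorticoid response element lies upstream of 1 of its RefSeq start sites, and the 250 bases before that start are shown because it was the single member window with such an element. The window is chr10:21993640-21993889 on the plus strand of GRCm38.p6, from RefSeq. Capitals mark the hexamer TGTTCT or AGAACA and the element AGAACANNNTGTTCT, in which a pair of such hexamers is inverted around 3 free bases. The element begins 189 bases before the start site and lies within an intron of longer Sgk1 transcripts.
Sgk1 upstream window: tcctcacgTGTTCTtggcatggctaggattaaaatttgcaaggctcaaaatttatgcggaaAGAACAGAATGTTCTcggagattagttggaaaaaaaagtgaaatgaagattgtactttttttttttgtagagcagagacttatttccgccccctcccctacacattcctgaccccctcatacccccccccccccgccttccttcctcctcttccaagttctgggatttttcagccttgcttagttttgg

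The complete element was found in 3 of 32851 RefSeq windows of that length (0.00913%), searched on both strands, which for this palindrome is the same search. RefSeq windows were at hand for 8 of the 10 members (16 windows). The lone hexamer occurred in 4 of those 16 windows, 3 of Sgk1 and 1 of Tsc22d3, and in 16.1% of all windows. The window of Tsc22d3 that held it is shown around the hexamer, chrX:140600692-140600717 on the minus strand of GRCm38.p6, where GENCODE M21 annotates no gene.
Tsc22d3 upstream hexamer: gcattcgacaTGTTCTaagttctgag
These are reference sequences of the B6 genome, BALB/c alleles were not read, and a match of letters is not a measured binding site.

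Sgk1 measured 125, 58.1 and 55.9 TPM in the B6 controls 2, 3 and 9, against 38.3, 55.0 and 58.3 TPM in B6 CRS mice 12, 13 and 14. The BALB/c controls 5, 9 and 10 held 45.9, 43.7 and 27.3 TPM of it, and CRS mice 12, 13 and 15 held 21.8, 34.2 and 40.0 TPM. B6 control 2 stood far above the rest, and control groups did not overlap between strains, as was so for 6 of 10 members, all lower in BALB/c, and for 18.7% of all genes in that direction. Sgk1 was called lower in BALB/c on average (-0.81, SE 0.23, adjusted p = 0.0295, limma), and the averaged CRS difference was -0.42 (SE 0.23, unadjusted p = 0.0871, limma). B6 control 2 also had the highest myelin score (8.63) and the highest summed blood markers (111 TPM) of all libraries. With the myelin score as a covariate the strain difference of Sgk1 was -0.14 (SE 0.31), and with the striatal score -0.18 (SE 0.31). The call was also lost when B6 CRS mouse 13 or 14, BALB/c control 10 or BALB/c CRS mouse 12 was left out, with differences between -0.77 and -0.68.

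Ddit4 (chr10:59949669-59951834, minus strand) encodes an inhibitor of the mTOR growth pathway. It measured 62.6, 42.8 and 34.8 TPM in the B6 controls 2, 3 and 9, against 28.7, 30.8 and 44.3 TPM in B6 CRS mice 12, 13 and 14. The BALB/c controls 5, 9 and 10 held 26.7, 21.5 and 15.4 TPM, and CRS mice 12, 13 and 15 held 16.6, 24.9 and 27.7 TPM. Every BALB/c library lay below every B6 library, as for Tsc22d3, with a narrow gap (27.7 against 28.7 TPM) and again no share counted over all genes. The strain difference was -0.83 on average (SE 0.19, adjusted p = 0.0100) and -1.10 in controls (SE 0.26, adjusted p = 0.0347, limma). Under CRS it was -0.57 (SE 0.26, adjusted p = 0.215, limma), although the groups did not overlap there, as for 4 of 10 members and 20% of all genes in that direction. The call in controls was lost when any of 5 libraries was left out (B6 controls 2 and 3, BALB/c controls 9 and 10, BALB/c CRS mouse 13), with differences of -1.14 to -0.87. With CRS the averaged difference was -0.14 (SE 0.19), and the CRS groups overlapped the controls in both strains.

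Hsd11b1 (chr1:193221634-193264075, minus strand) is the gene of the hormone-regenerating enzyme. It measured 10.9, 10.8 and 9.06 TPM in the B6 controls 2, 3 and 9, against 11.4, 6.94 and 6.71 TPM in B6 CRS mice 12, 13 and 14. In BALB/c it was at 5.85, 6.09 and 6.16 TPM in controls 5, 9 and 10 and at 6.89, 7.66 and 5.51 TPM in CRS mice 12, 13 and 15. The controls were clearly apart between strains, and the CRS groups overlapped. The averaged strain difference was -0.47 (SE 0.13, adjusted p = 0.0274, limma), and in controls it was -0.68 (SE 0.18, adjusted p = 0.0597, limma). The averaged call rests on summed rows. The highest single row gave -0.80 (SE 0.34, adjusted p = 0.221) and the second row 0.54 (SE 0.59, adjusted p = 0.682, limma over single rows). The highest row held from 14.6% to 100% of the sum, depending on the library. The averaged call was lost with median-of-ratios factors applied to the TPM columns (-0.38, adjusted p = 0.0843, limma) and without B6 control 2 or 3, BALB/c control 5 or 10, or BALB/c CRS mouse 15. The averaged CRS difference was -0.09 (SE 0.13).

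Zbtb16 (chr9:48654297-48836222, minus strand), which encodes a zinc finger transcription factor strongly induced by glucocorticoids in many cells, was the member with a difference above 0 between strains. It measured 8.15, 15.7 and 19.7 TPM in the B6 controls 2, 3 and 9, against 9.80, 14.7 and 12.7 TPM in B6 CRS mice 12, 13 and 14. Higher values were seen in BALB/c, at 19.3, 16.9 and 26.1 TPM in controls 5, 9 and 10 and 14.5, 30.5 and 23.6 TPM in CRS mice 12, 13 and 15. The strains overlapped in both treatments, in controls through B6 control 9 and under CRS through BALB/c mouse 12. The averaged strain difference was 0.67 (SE 0.22, adjusted p = 0.0554, limma). It was called with median-of-ratios factors (0.76, adjusted p = 0.0234) and without B6 control 9 (0.79) or BALB/c CRS mouse 12 (0.81, limma). The B6 values ran opposite to the striatal score, lowest in the 2 libraries with the highest score (B6 control 2 and CRS mouse 12), and with that score as a covariate the strain difference was -0.03 (SE 0.27). The averaged CRS difference was -0.03 (SE 0.22).

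Errfi1, which encodes a feedback inhibitor of the epidermal growth factor receptor, spanned 11.1 to 18.0 TPM over the 12 libraries. It measured 17.5, 18.0 and 15.6 TPM in the B6 controls 2, 3 and 9, against 12.2, 14.7 and 15.4 TPM in B6 CRS mice 12, 13 and 14, without overlap. In BALB/c it was between 13.7 and 15.1 TPM in controls and between 11.1 and 17.0 TPM in CRS mice. Neither the averaged strain difference (-0.12, SE 0.10, adjusted p = 0.476) nor the averaged CRS difference (-0.15, SE 0.10, adjusted p = 0.96, limma) was called. Pdk4, which encodes a kinase that restrains pyruvate entry into oxidation, was the lowest of the members, at 3.17 to 7.25 TPM over the 12 libraries. Its averaged strain difference was -0.27 (SE 0.17, adjusted p = 0.294, limma) and its CRS difference 0.10 (SE 0.17). Under CRS its BALB/c libraries (3.95 to 4.71 TPM) all lay below its B6 libraries (4.84 to 7.25 TPM).

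By mean level over the 12 libraries the order was Sgk1 (50.3 TPM), Tsc22d3 (41.6), Ddit4 (31.4), Nr3c1 (30.8), Zbtb16 (17.7), Errfi1 (14.9), Fkbp5 (14.3), Nr3c2 (12.0), Hsd11b1 (7.84) and Pdk4 (4.86). Neighbours in this order overlapped in their ranges over libraries. The same transcripts thus spanned percentiles from 31.3 (Pdk4) to 82.8 (Sgk1) of all tested genes.

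The strain calls were read beside the marker scores. With the myelin score as a covariate 0 of 10 members were called on average, and the number of all genes called went from 3021 to 373. Tsc22d3 kept a difference of -0.58 (SE 0.15, adjusted p = 0.0967), Ddit4 of -0.43 (SE 0.29) and Hsd11b1 of -0.37 (SE 0.22, limma). With the striatal score as a covariate, chosen after the data were seen, 511 genes and 1 member were called, Tsc22d3 (-0.68, SE 0.16, adjusted p = 0.0409, limma). Both scores differ between strains, so that strain and tissue makeup cannot be told apart in these libraries. For CRS the averaged differences with the myelin score were close to those without it, at -0.44 for Tsc22d3 and 0.47 for Fkbp5.

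Within groups, the members were also compared by their deviations from the group mean over the 12 libraries. Of 45 pairs, 1 passed a Benjamini-Hochberg threshold of 0.05, Sgk1 with Ddit4 (Pearson r = 0.91, Spearman rho = 0.94, exact permutation p = 0.0008 for each, adjusted p = 0.0347 for each). Without the 2 libraries farthest from the median of Sgk1, r was 0.88. Under median-of-ratios scaling r was 0.91 (exact permutation p = 0.0031, adjusted p = 0.139) and 0 pairs passed. Ddit4 also had r = 0.84 with Fkbp5 and 0.80 with Nr3c2 (adjusted p = 0.081 and 0.0694, exact permutation). Zbtb16 with Pdk4 was the strongest negative pair (r = -0.76, exact permutation p = 0.0201, adjusted p = 0.129). Libraries differ in cell type marker levels, and TPM ties each gene to the rest of its library.

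For each member other than Fkbp5, the 2 tested genes whose deviations ran closest to it were listed as a description over 12 libraries. Ddit4 ran closest to Slc35a4 (r = 0.98) and Dcp1b (0.97), Nr3c1 to Sat2 (0.98) and Bmerb1 (0.97), and Nr3c2 to Sema6d (0.97) and Ppfia1 (0.96). Tsc22d3 ran with Pacsin3 (0.94) and Tank (0.93), and Sgk1 with Nmnat3 (0.97) and Gtf3c5 (0.96). Zbtb16 ran with Plpbp (0.97) and Psd3 (0.96), Hsd11b1 with Ticam1 (0.93) and Gzmk (0.89), Errfi1 with Trim65 and Ddx19a (0.97 each), and Pdk4 with Tdrd7 (0.97) and Jpt2 (0.95). Such values come from picking the best of 16423 genes.

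A wider list of 30 other glucocorticoid-induced genes, of which 29 were tested, was read between strains in the same fit. On average 15 were called lower and 1 higher in BALB/c, where 14.3% and 4.05% of all genes were, and the median log2 difference was -0.35. With median-of-ratios scaling 11 were called lower and 2 higher (median -0.27), where 10.5% of all genes were called lower and 8.98% higher, with Klf15, Klf9, Hif3a and Tgm2 no longer called and Dusp1 called higher. With the myelin score as a covariate 2 were called, Mertk and Map3k6, and with the striatal score 4, all lower in BALB/c. Of all genes, 1.33% were called lower with the myelin score and 2.05% with the striatal score. The list's median was -0.27 with the myelin score and -0.37 with the striatal score, against -0.09 and -0.15 for all genes. The part of the myelin, astrocyte and striatal marker differences in these calls was not tested beyond those covariate fits. Metallothionein genes, which encode metal-binding proteins, were among them: Mt2 ranged from 280 to 391 TPM in B6 controls and from 145 to 205 TPM in BALB/c controls (averaged difference -0.99, SE 0.13, adjusted p = 0.000376, limma). Mt1 went from 471 to 577 TPM in B6 controls to 300 to 372 TPM in BALB/c controls (-0.65). The thioredoxin-binding gene Txnip (-0.92), the kinase gene Map3k6 (-0.82), the actin-associated gene Fam107a (-0.57), the arrestin-domain gene Arrdc2 (-1.06) and the lipid droplet gene Plin4 (-0.85) were lower as well. So were Ndrg1 (-1.77), abundant in oligodendrocytes, the phagocytosis receptor gene Mertk (-0.71) and the sulfotransferase gene Sult1a1 (-0.63). Plin4 lay near the floor, at 0.84 to 2.91 TPM in B6 and 0.14 to 0.73 TPM in BALB/c. It reached the level needed for testing through B6 libraries alone, so the filter favoured this direction. The remaining calls were the transcription factor genes Klf15 (-0.52), Klf9 (-0.29) and Hif3a (-0.48), the glutamine synthetase gene Glul (-0.33) and the transglutaminase gene Tgm2 (-0.34). Cdkn1a, a cell cycle inhibitor gene, was called higher (0.54, adjusted p = 0.0373, limma). Per1, a clock gene (-0.24), and Dusp1, a phosphatase gene (0.44), were not called. In GENCODE M21 an exon of another gene lies across Mt2, Plin4, Ndrg1, Sult1a1, Glul, Tgm2, Txnip, Cdkn1a and Dusp1 on the other strand, which leaves their values uncertain if strand was ignored.

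**Figure D5:**
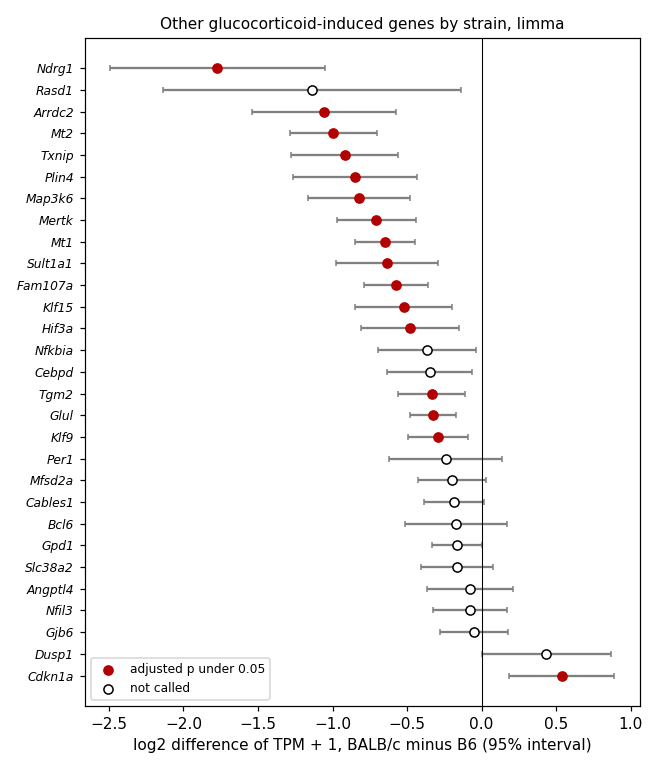
Log2 difference of TPM + 1 between BALB/c and B6, averaged over control and CRS, with its 95% interval for 29 other glucocorticoid-induced genes sorted by size. Filled points are called, 15 below 0 and Cdkn1a above it, and 27 of 29 points lie below 0.

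In controls 6 of these 29 genes were called lower (Mt1, Mt2, Arrdc2, Mertk, Map3k6 and Fam107a) and under CRS 8 were (Mt1, Mt2, Plin4, Mertk, Txnip, Fam107a, Ndrg1 and Sult1a1), with 0 called higher in each. Of all genes, 3.37% were called lower in controls and 5.33% under CRS. With CRS 0 were called in either strain or on average (limma), and 5 of 29 had an unadjusted p under 0.05 on average, where 0.00609% of all genes were called and 5.17% had such a p. Dusp1 was lower (-0.58, unadjusted p = 0.0127) and Mt2 higher (0.49, unadjusted p = 0.00332, adjusted p = 0.946, limma), and the list's median was -0.03. In B6, Dusp1 was at 32.3 to 50.6 TPM in controls and 18.3 to 24.6 TPM in CRS mice. In BALB/c its groups overlapped, at 32.8 to 63.5 TPM in controls and 25.7 to 49.3 TPM in CRS mice. The hexamer was present in 14.3% of the 28 windows of this list, against 16.1% of all windows, and the complete element in 0. A relaxed element, GNACANNNTGTNC, was present in 5 of 28 windows of this list and in 0.387% of all windows, searched on both strands as a palindrome. The 5 windows belong to 4 of 23 genes, since overlapping windows of Fam107a held the same match. The 4 genes that held the relaxed element, Txnip, Map3k6, Mt1 and Fam107a, are shown because all were called lower in BALB/c, as 15 of the 29 tested genes were. The element is in capitals on the strand of the gene (GRCm38.p6, RefSeq).
Txnip chr3:96557775-96557807: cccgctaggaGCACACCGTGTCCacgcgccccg
Map3k6 chr4:133240627-133240659: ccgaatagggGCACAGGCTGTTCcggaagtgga
Mt1 chr8:94178985-94179017: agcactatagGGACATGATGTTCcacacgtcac
Fam107a chr14:8309875-8309907: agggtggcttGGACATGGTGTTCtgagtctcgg
The Map3k6 and Mt1 matches lie in no annotated gene, the Txnip match lies under an exon of Gm15441 on the other strand, and the Fam107a match lies in an intron of longer Fam107a transcripts.

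Among the receptor's chaperones and coregulators, the share called was no higher than among all genes. Of 14 chaperone and co-chaperone genes, 2 were called lower in BALB/c on average, Hspa8 (-0.72, adjusted p = 6.41e-05) and Ptges3 (-0.25, adjusted p = 0.0126, limma), where 14.3% of all genes were called lower, and the list's median was 0.01. Hspa8 has 8 near-identical copies and Ptges3 has 1, so reads may be split between them. The subunits of the receptor's main chaperone, Hsp90aa1 (0.09) and Hsp90ab1 (0.00), and the co-chaperone Fkbp4 (-0.09), which opposes FKBP5 at the receptor, were not called. Hsp90aa1 has 3 near-identical copies and Fkbp4 has 1, so the same limit holds for them. Of 14 coregulator genes 0 were called (1 at an unadjusted p under 0.05, limma), where 18.4% of all genes were called and 32% had such a p. With median-of-ratios scaling the coregulator genes Ep300 and Hdac3 were called higher in BALB/c, as was the chaperone-linked ligase gene Stub1, and Ptges3 was not called. For corticosteroid metabolism and transport, 6 of 11 genes were tested. Srd5a1, a steroid reductase gene, was at 6.12 to 13.1 TPM in B6 and 1.56 to 3.04 TPM in BALB/c (-1.59, SE 0.15, adjusted p = 1.90e-05, limma). Akr1c14, which acts after it in making neurosteroids, was higher in BALB/c (0.53, adjusted p = 0.0165, limma). Akr1c14 lay near the floor, at 0.69 to 1.44 TPM in B6 and 1.46 to 2.55 TPM in BALB/c. It reached the level needed for testing only with the BALB/c libraries, so the filter favoured this direction. H6pd, which supplies the cofactor for the Hsd11b1 enzyme, was at 1.75 to 3.65 TPM (-0.22, adjusted p = 0.279, limma), and Hsd11b2, whose enzyme inactivates corticosterone, was listed at 0 in 11 of 12 libraries. No gene of these lists was called for CRS in either strain or on average.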

How the data were processed

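RNA from 12 mice was measured by paired-end sequencing of stranded mRNA libraries, per the labels' protocols. The authors deposited TPM values, quantified from the reads before deposit, in 1 table of 147902 rows with gene names only. The unit was read from the values, since each column sums to 1000000. Per the submitters' processing notes, cutadapt 2.9, Salmon and GRCm38 were used; annotation and strand setting are not given in the sources used here. TPM keeps no depth, so counting error is unknown and precision rests on the spread between mice. The labels give an animal number per library and nothing on litter or batch, so p-values measure the spread between these samples.

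Rows sharing a gene name were added up. The 16423 genes reaching 1 TPM in 3 or more libraries were fitted as log2(TPM + 1) with 4 group means (8 residual degrees of freedom, all 12 libraries sharing 1 spread) in limma 3.58.1 (R 4.3.3; lmFit, contrasts.fit, eBayes with trend), with Benjamini-Hochberg adjustment over all tested genes. A count test had been planned for counts and was not used, as the table holds TPM. The script was tested on simulated data. The receptor ratio was tested by exact permutation of labels within strain or treatment, and pairs of members by exact permutation within groups (1296 relabellings). Alternatives were a pseudocount of 0.1, no filter, a mean of at least 5 TPM, median-of-ratios scaling, robust eBayes, a myelin or striatal covariate, the animal number as a block, single rows and each library left out. The striatal covariate and the single rows were added after the data were seen.

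All 10 members were named; of the other lists every called gene was named, and Per1, Dusp1, Mt1, Mt2, Klf9, Fkbp4, Hsp90aa1, Hsp90ab1, H6pd and Hsd11b2 in any case. The members, the lists and the receptor ratio were chosen with earlier results of these data known. Near-identical copies (at least 95% identity over 80% of the transcript, blastn 2.17.0) and overlaps came from GENCODE M21, and 250-base upstream windows from RefSeq (GRCm38.p6). No member had a near-identical copy. The genes running closest to Fkbp5 are not reported here.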

Additional observations from a re-analysis of the deposited data

How the results depend on the processing

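The direction of the 4 called strain differences (Tsc22d3, Ddit4, Hsd11b1, Sgk1) held in all 20 alternatives, and the number of members called did not. Against 4 called on average, 2 in controls and 1 under CRS, no filter gave 2 on average and 1 in controls, the myelin covariate 0, 0 and 0, and the striatal covariate 1, 1 and 0; leaving out 1 library gave 2 to 6 on average and 1 to 3 in controls. The count of 2 on average came without BALB/c control 10, and that of 6 without B6 control 9. Animal numbers did not pair the samples (correlations of deviations -0.24 for number 9, -0.03 for 12 and -0.04 for 13), and with the replicate block the members called were again 4, 2 and 1. No CRS contrast called a member under any alternative run. The receptor ratio rose with CRS by 0.59 to 0.90 when 1 library was left out (exact permutation p 0.005 to 0.025). Its strain difference was -0.49 (exact permutation p = 0.035) without B6 control 9, in a range of -0.49 to -0.19. With median-of-ratios scaling 0 pairs of members passed, and the median strain difference of all genes moved from -0.08 to 0.00.

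Of the member differences printed with a test, recomputed under each alternative, 672 values kept direction and side of the threshold, 33 lost the threshold, 10 gained it and 18 changed sign; member differences not printed are outside this tally, and some, such as that of Errfi1 between strains under CRS, also changed sign. With the striatal covariate these were the strain differences of Zbtb16 (-0.032) and Pdk4 (0.36) and the CRS differences of Zbtb16 (0.11) and Pdk4 (-0.020), and with the myelin covariate the strain difference of Pdk4 (0.21). With the block they were the CRS differences of Zbtb16 (0.11), Errfi1 (0.0033) and Ddit4 (0.10). Leaving out 1 library gave CRS differences of -0.20 to 0.11 for Zbtb16 (0.02 without B6 control 3, 0.10 without B6 control 9, 0.05 without B6 CRS mouse 12, 0.06 without BALB/c control 10, 0.11 without BALB/c CRS mouse 12) and of -0.03 to 0.22 for Pdk4 (-0.029 without B6 control 9). The difference of the Fkbp5 CRS effect between strains ran from -0.36 to 0.04 (0.042 without B6 CRS mouse 14, 0.018 without BALB/c CRS mouse 12). The highest row in place of the sum gave 0.040 for Zbtb16 with CRS and 0.19 for Nr3c1 with CRS in B6. The cause of these shifts was not tested. Pdk4 could not be fitted at a mean of 5 TPM, being below it. TPM gives no depth, so the limit that depth sets is unknown.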
